A study of Mus musculus with 9 samples.

Results

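Glycolysis and the pentose phosphate path were examined through 36 genes that were listed by function: glucose and lactate transporters, the glycolytic enzymes, the steps that bring pyruvate into mitochondria, the pentose phosphate enzymes and the transcription factor Hif1a. A gene was measured where the deposited table has a probe set that names it alone, and the brightest such probe set stood for it. This gave 31 of the 36 genes, out of 19937 genes measured in all. Gpi1, Eno1, Mpc2 and G6pdx have no probe set listed with them alone, and Gapdh is listed only in probe sets that name several genes, so these 5 are not analysed here. The list of genes follows their function and uses no threshold on their levels or differences.

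The RNA came from 3 groups of mouse CD4+ T cells with 3 arrays each, named as biological replicates. Naive cells (CD4+ CD44-, with a further surface marker in the gate) were sorted from the spleens of sham-treated mice at day 29. Acute Th2 cells (CD4+ CD69+ ST2+) were sorted from lungs at day 29, after 3 injections of 10 µg ovalbumin on 1.5 mg aluminium hydroxide (days 1, 14 and 21) and 1% ovalbumin aerosol on 3 consecutive days. Chronic Th2 cells had the same sort gate and the same injections, with the aerosol given over 12 weeks, 2 challenges per week, and were taken at day 104. After the sort, all 3 groups had 8 h of stimulation through CD3 and CD28 by antibodies, as the labels give it. Levels below are thus those of cells labelled as stimulated. On the first naive array, Il2 and Irf4 were far lower than on the other naive arrays, as given below. The comparison with naive cells is one of spleen with lung as well as of naive with Th2 cells, and the comparison of the Th2 groups is also one of day 29 with day 104. Strain, age and any pooling of mice are not stated in the labels used here. In sorted bulk samples, fewer cells with a transcript and less of it per cell cannot be told apart.

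Glycolysis splits glucose into pyruvate in the cytosol and yields ATP quickly. In resting T cells it runs slowly. After activation, T cells take up more glucose and turn much of the pyruvate into lactate even when oxygen is present, which also supplies carbon for new nucleotides, amino acids and lipids. The pentose phosphate path branches off glucose 6-phosphate. Its oxidative arm (G6pdx, Pgd) makes NADPH, and its reversible arm (Tkt, Taldo1) exchanges sugars with glycolysis. Hif1a encodes the oxygen-regulated subunit of a transcription factor that raises many glycolytic genes and that T cells also use when oxygen is plentiful.

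Values are RMA log2 intensities, so that 1 unit is a 2-fold difference. Intensities of different genes depend on their probes and are not set against each other here. Background was gauged by 1015 olfactory receptor genes, and the 95th percentile of their means was 6.53. Of the 31 genes, 25 had a mean above it, while Pfkm, Pfkfb4, Aldoc, Bpgm, Ldhb and Pdk1 did not. A gene was called higher or lower where limma's adjusted p, taken over all 19937 genes, was under 0.05.

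The T cell genes Cd3e (11.41 to 12.22) and Cd4 (9.49 to 10.81) were high on all 9 arrays, and Gata3, the Th2 lineage factor, was at 8.25 to 9.63 on naive and 11.68 to 12.02 on Th2 arrays. Cd44, absent by gate from the naive sort, was at 7.30 to 7.72 on naive and 9.18 to 9.67 on Th2 arrays. Of the 8 measured T cell and sort markers, Gata3 and Cd44 were called higher and Ccr7 and Lef1, which mark naive cells, lower in both Th2 groups. Il1rl1, which encodes ST2, is not analysed here. Marker lists of B cells (7 genes measured), NK cells and ILC2 (7), macrophages and dendritic cells (13), granulocytes and mast cells (11), lung structural cells (15) and erythroid cells and platelets (4) had mean levels under 6.53 on every array. Single members were above 6.53 in all 3 groups: Cd79b of B cells, Rora of NK cells and ILC2, Cd68 and Siglecf of macrophages and dendritic cells, 6 lung structural genes (Sftpa1, Ager, Pecam1, Col1a1, Col1a2 and Col3a1) and Itga2b of platelets. The CD8 list has 2 genes, and its mean was 7.04, 6.68 and 6.57 on the naive and at most 6.54 on the Th2 arrays. Cd8a lay between 5.97 and 6.38, while Cd8b1 had group means of 7.27, 6.70 and 6.72 in naive, acute and chronic cells and was not called. The part of these markers in the results was not tested. In the comparisons with naive cells, the called genes of these lists were Il17rb and Rora (higher in both), Cd79a (lower in chronic cells by 0.61) and Sftpa1 (higher in chronic cells by 0.54).

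The first naive array stood apart from the other naive arrays in genes of T cell activation. Il2, the growth factor made after stimulation, was at 5.07 on it and at 11.33 and 11.27 on the others. Irf4, which is induced through the T cell receptor, was at 6.87 against 11.73 and 11.71, and Myc at 10.19 against 12.15 and 12.19. Txnip, whose product restrains glucose uptake, was at 11.30 against 9.07 and 8.19. These genes were picked after their values were seen. In a list of 25 early genes of T cell receptor stimulation, 2 rose (Ifng and Ier3) and 1 fell (Dusp2) in acute cells, and the same in chronic cells. With the array left out, 6 were higher and 10 lower in acute cells, and 6 higher and 12 lower in chronic cells. The mean level of this list was 8.37 on this array, 9.78 and 9.99 on the others, 9.43 to 9.53 on acute and 9.13 to 9.70 on chronic arrays.

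The glycolytic genes moved with this array. It was the lowest of the naive arrays for 20 of the 31 genes (64.5%, against 42.8% of all genes) and the highest for 9 (29%, against 33.3%). Compared with the mean of the other naive arrays, 4 of the 31 genes were lower on it by over 1 log2 unit (12.9%, against 4.37% of all genes). These were the lactate transporter Slc16a1 (-2.10), the hexokinase Hk2 (-2.07), the kinase Pgk1 (-1.79) and Hif1a (-1.24). Ldhb (1.09) and Pdk1 (1.08) were higher on it by over 1 unit. The counts against naive cells are therefore given with and without it. Its part in the results was not tested beyond that.

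**Figure D1:**
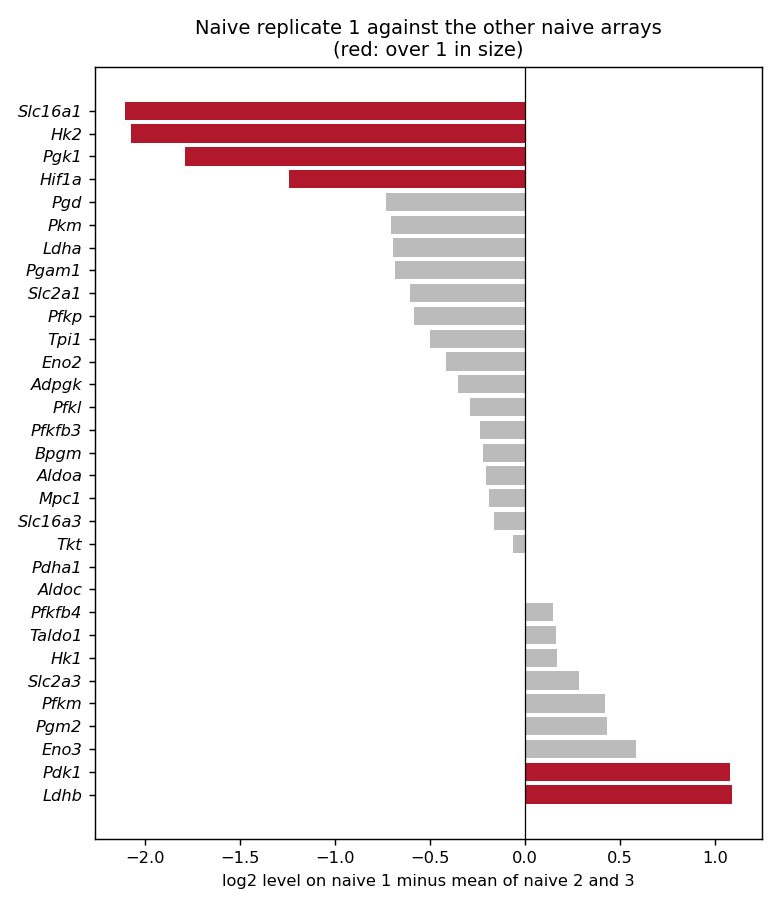
Level of each of the 31 genes on the first naive array minus the mean of the other naive arrays (x axis, log2 units), with genes on the y axis ordered by that difference. Red bars mark the 6 genes that differ by over 1 unit: Slc16a1, Hk2, Pgk1 and Hif1a on the low side, Pdk1 and Ldhb on the high side.

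The first comparison set acute lung Th2 cells against naive cells, that is, the early stage of airway inflammation against the starting state. Triosephosphate isomerase Tpi1 (2.92-fold), the aldolase Aldoa (1.74-fold) and Hif1a (2.61-fold) were higher in acute Th2 cells, and the glucose transporter Slc2a3 was lower, at 0.598 of its naive level. These 4 of 31 genes were called, where 5.87% of all genes were called (3.67% higher, 2.20% lower). Most of the 31 genes are above background, unlike many of all genes. A fit on only the 9815 genes with a mean above background called 1051 of them, and 5 of the 25 listed genes among them. The groups' arrays did not overlap for 11 of the 31 genes, 9 higher and 2 lower in acute cells, against 19.7% of all genes (8.80% higher and 10.9% lower). Of the 9815 genes above background, 13% were higher and 15.1% lower without overlap. The median difference over the 31 genes was 0.08, with a range from -0.82 to 1.54, beside -0.03 over all genes. With the first naive array left out, 8 of 31 genes were called: Hk2 and Pgk1 joined the higher ones, and Slc16a1 and Pgd joined Slc2a3 among the lower ones. In that fit 12.2% of all genes were called (6.05% higher, 6.11% lower). The arrays then did not overlap for 16 of the 31 genes, 11 higher and 5 lower, against 35.8% of all genes (14.4% higher, 21.5% lower). Without the second naive array, in a fit that keeps the first, 7 were called, with Hk2, Pfkp and Pkm added as higher. In it 4.78% of all genes were called.

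The second comparison set chronic lung Th2 cells against the same naive arrays, so it is not independent of the first. Tpi1 (2.19-fold) and Hif1a (2.62-fold) were higher in chronic Th2 cells. Slc2a3, at 0.565 of its naive level, and the transketolase Tkt, at 0.693, were lower. The background for these 4 called genes of 31 was 7.88% of all genes (3.68% higher, 4.20% lower). The fit on only the 9815 genes with a mean above background called 1469 of them, and 4 of the 25 listed genes among them. Arrays did not overlap for 13 of the 31 genes, 5 higher and 8 lower in chronic cells, against 27.9% of all genes (15.6% higher, 12.3% lower). The median over the 31 genes was -0.12, with a range from -1.06 to 1.39, beside 0.04 over all genes. Among the 9815 genes with a mean above background, the median was also -0.12, and 21.3% were lower and 12.4% higher without overlap. With that naive array left out, 10 were called, the same 2 higher and 8 lower (Slc2a3, Adpgk, Pfkfb3, Pgam1, Slc16a1, Pdk1, Pgd and Tkt), where 17.2% of all genes were called, 5.84% higher and 11.4% lower. The arrays then did not overlap for 16 of the 31 genes, 5 higher and 11 lower, against 44.6% of all genes (22.0% higher, 22.6% lower). Without the first chronic array only Slc2a3 and Tkt of the 31 were called, and the share of all genes called was 3.68%.

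**Figure D2:**
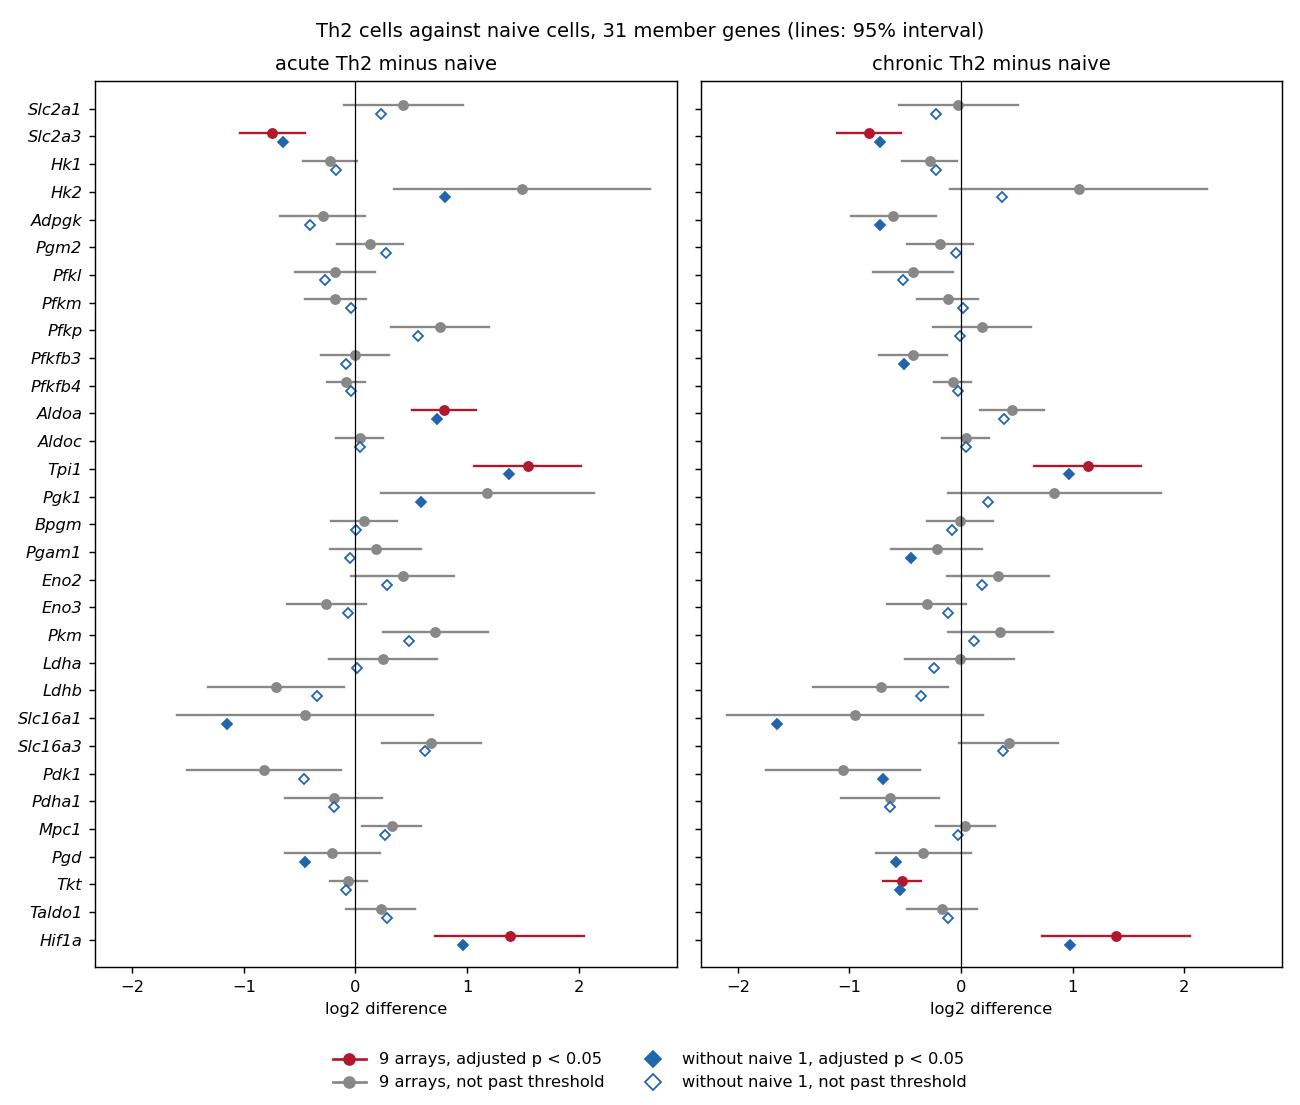
Log2 difference from naive cells (x axes) of the 31 genes (y axis) in acute Th2 cells (left) and chronic Th2 cells (right), from the fit on all 9 arrays (circles, with 95% intervals as lines, red where called) and from the fit without the first naive array (diamonds, filled where called). Tpi1 and Hif1a lie to the right of 0 and Slc2a3 to the left in both panels, and the intervals of Hk2, Pgk1 and Slc16a1 are wide when the first naive array is kept.

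Glucose enters T cells mainly through the facilitative transporters GLUT1 (Slc2a1) and GLUT3 (Slc2a3). Slc2a3 was at 8.32, 8.06 and 8.01 on the naive arrays, at 7.15, 7.53 and 7.49 on the acute and at 7.26, 7.38 and 7.29 on the chronic arrays. Every Th2 array was lower than every naive array. The difference was -0.74 (SE 0.13, adjusted p = 0.00985) in acute and -0.82 (SE 0.13, adjusted p = 0.00579) in chronic cells, and without the first naive array -0.65 and -0.73, both still called. Slc2a1 was at 9.45, 10.00 and 10.11 on naive, 9.99, 10.38 and 10.49 on acute and 9.55, 9.71 and 10.24 on chronic arrays. These groups overlap, and the differences from naive cells were 0.43 (SE 0.23, adjusted p = 0.447) and -0.03 (SE 0.23, adjusted p = 0.953). Among 26 further isozymes and transporters of the path, Slc2a6, a transporter of the same family, was the only one called in either comparison on all arrays. Its mean rose from 7.13 in naive cells to 8.41 in acute (difference 1.28, adjusted p = 0.00665) and 8.29 in chronic cells (1.16, adjusted p = 0.0101). With the first naive array left out, Slc2a6 was again called in both, Pgm1 was higher in acute cells (0.55, adjusted p = 0.0110) and Pgam5 lower in chronic cells (-0.80, adjusted p = 0.00527).

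Hexokinases trap glucose in the cell as glucose 6-phosphate. Hk2, the isoform that activated T cells induce, was at 5.73, 8.17 and 7.42 on naive, 8.73, 8.63 and 8.44 on acute and 8.08, 8.07 and 8.33 on chronic arrays. The acute arrays lie above all naive arrays, and the chronic arrays overlap the second naive array. The acute difference was 1.49 (SE 0.50, adjusted p = 0.161) with all arrays and 0.80 (adjusted p = 0.0336) without the first naive array. The chronic difference was 1.05 (SE 0.50, adjusted p = 0.228) and 0.36 (adjusted p = 0.262). Hk1, the constitutive isoform, lay between 11.73 and 12.23 on all arrays and was not called. Its probe set is numbered among probe sets of another chromosome's genes, and the other Hk1 probe set gave differences of 0.10 and -0.03 from naive cells, beside -0.23 and -0.28 here. Adpgk, an ADP-dependent glucokinase, was at 8.30, 8.82 and 8.47 on naive and 7.72, 8.21 and 7.83 on chronic arrays, without overlap. Its difference was -0.61 (SE 0.17, adjusted p = 0.0649), and -0.72 (adjusted p = 0.0177) without the first naive array. Pgm2, a phosphopentomutase, differed by 0.13 and -0.19 and was not called.

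Phosphofructokinase commits sugar to glycolysis, and the Pfkfb enzymes set the level of its activator fructose 2,6-bisphosphate. Pfkp, the platelet-type subunit, was at 8.64, 9.53 and 8.91 on naive, 9.76, 9.75 and 9.83 on acute and 9.19, 9.22 and 9.24 on chronic arrays. The acute arrays were above all others and within 0.1 of each other. The difference from naive cells was 0.75 (SE 0.19, adjusted p = 0.0603) in acute and 0.19 (SE 0.19, adjusted p = 0.544) in chronic cells. Without the first naive array the differences were 0.56 (adjusted p = 0.0509) and -0.005 (adjusted p = 0.988), neither called. Without the second naive array, in a fit that keeps the first, the acute difference was 1.01 (adjusted p = 0.00151). Pfkfb3 was at 7.05, 7.43 and 7.14 on naive, 7.05, 7.17 and 7.38 on acute and 6.84, 6.61 and 6.87 on chronic arrays. The chronic arrays were the lowest, with a difference from naive cells of -0.43 (SE 0.13, adjusted p = 0.0887), and of -0.51 (adjusted p = 0.0349) without the first naive array. Pfkl, the liver-type subunit, differed by -0.18 and -0.43 and was called in neither comparison. Pfkm and Pfkfb4 lay near background, between 6.32 and 6.86 and between 6.10 and 6.30.

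In the lower part of the path, Aldoa and Aldoc cleave fructose 1,6-bisphosphate and Tpi1 interconverts the triose phosphates. Aldoa was at 10.65, 10.77 and 10.95 on naive, 11.46, 11.55 and 11.75 on acute and 11.06, 11.24 and 11.42 on chronic arrays. Both Th2 groups lie above the naive arrays. Aldoa rose by 0.80 (SE 0.13, adjusted p = 0.00685) in acute cells, and its chronic difference was 0.45 (SE 0.13, adjusted p = 0.0662). Tpi1 was at 7.95, 8.43 and 8.48 on naive, 9.57, 9.66 and 10.25 on acute and 9.38, 9.23 and 9.65 on chronic arrays. Its difference of 1.54 (SE 0.21, adjusted p = 0.00315) in acute cells was the largest of the 31 genes, and that in chronic cells was 1.13 (SE 0.21, adjusted p = 0.0144). The chronic call was lost without the first chronic array (1.15, adjusted p = 0.0585). Aldoc lay between 6.05 and 6.34 on all arrays, near background.

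The ATP-yielding enzymes of this part are the kinases Pgk1 and Pkm. Pgk1 was at 8.47, 10.41 and 10.10 on naive, 10.94, 10.72 and 10.87 on acute and 10.51, 10.51 and 10.47 on chronic arrays. All Th2 arrays were above all naive arrays, but the naive arrays spread over almost 2 units. The acute difference was 1.18 (SE 0.42, adjusted p = 0.184) with all arrays and 0.59 (adjusted p = 0.0105) without the first naive array. The chronic difference was 0.84 (SE 0.42, adjusted p = 0.244) and 0.24 (adjusted p = 0.195). Pkm, pyruvate kinase, was at 9.32, 10.21 and 9.84 on naive, 10.51, 10.51 and 10.48 on acute and 9.90, 10.23 and 10.29 on chronic arrays. The acute arrays lay above the naive and the chronic arrays. Its differences from naive cells were 0.72 (SE 0.21, adjusted p = 0.0939) and 0.35 (SE 0.21, adjusted p = 0.304). Without the first naive array they were 0.48 (adjusted p = 0.066) and 0.12 (adjusted p = 0.619). The mutase Pgam1, at 9.14, 9.77 and 9.88 on naive arrays and 9.35, 9.32 and 9.46 on chronic arrays, was lower in chronic cells only without the first naive array (-0.45, adjusted p = 0.0173). The enolases Eno2 and Eno3 and the mutase Bpgm were not called, with differences from -0.31 to 0.42.

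Lactate dehydrogenase converts pyruvate to lactate, which leaves the cell through the monocarboxylate transporters Slc16a1 and Slc16a3. Ldha was at 10.57, 11.51 and 11.02 on naive, 11.11, 11.29 and 11.44 on acute and 10.88, 11.10 and 11.09 on chronic arrays. The groups overlap, and its differences from naive cells were 0.25 (SE 0.21, adjusted p = 0.692) and -0.01 (SE 0.21, adjusted p = 0.975). Slc16a1 was at 7.52, 9.75 and 9.49 on naive, 8.55, 8.60 and 8.25 on acute and 7.69, 8.22 and 7.98 on chronic arrays. The Th2 arrays lie between the first naive array and the other naive arrays. With all arrays the differences were -0.45 (SE 0.50, adjusted p = 0.785) and -0.95 (SE 0.50, adjusted p = 0.264). Once the first naive array was left out, Slc16a1 was lower in acute cells by 1.15 (log2 difference -1.15, adjusted p = 0.00252) and in chronic cells by 1.65 (-1.65, adjusted p = 0.000311). Slc16a3 was at 6.79, 6.94 and 6.96 on naive, 7.26, 7.38 and 8.09 on acute and 7.26, 7.26 and 7.44 on chronic arrays. All Th2 arrays were above all naive arrays, but the differences of 0.68 (SE 0.20, adjusted p = 0.0937) and 0.43 (SE 0.20, adjusted p = 0.211) were not called.

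Ldhb, the isoform that favours pyruvate, was dim: 7.17, 6.21 and 5.95 on naive, 5.82, 5.68 and 5.70 on acute and 5.79, 5.78 and 5.59 on chronic arrays. Its differences of -0.71 (SE 0.27, adjusted p = 0.215) and -0.72 (SE 0.27, adjusted p = 0.138) were not called. This probe set is numbered among those of another chromosome's genes. The other Ldhb probe set, which lies among the gene's neighbours, was at 6.67, 6.48 and 6.25 on naive, 5.41, 5.17 and 5.84 on acute and 5.84, 5.50 and 5.84 on chronic arrays. With it, a choice made after the data were seen, Ldhb was lower in acute (-0.99, SE 0.19, adjusted p = 0.0166) and in chronic cells (-0.74, adjusted p = 0.0491). All its Th2 values are under the background of 6.53, and so are its naive values of 6.48 and 6.25.

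Pyruvate enters mitochondria through the carrier that Mpc1 and Mpc2 form, and is oxidised by pyruvate dehydrogenase (catalytic subunit Pdha1), which the kinase Pdk1 switches off. Pdk1 was at 7.61, 6.78 and 6.28 on naive, 5.80, 6.14 and 6.28 on acute and 5.58, 5.96 and 5.96 on chronic arrays. The chronic arrays lay below all naive arrays and under background. Its differences were -0.82 (SE 0.30, adjusted p = 0.205) and -1.06 (SE 0.30, adjusted p = 0.0724), and the chronic one was -0.70 (adjusted p = 0.0418) without the first naive array. Pdha1 was at 8.47, 8.72 and 8.21 on naive and 7.53, 7.93 and 8.02 on chronic arrays, with a difference of -0.64 (SE 0.19, adjusted p = 0.0821). Mpc1 lay between 9.19 and 9.69 on all arrays. Its acute arrays were the highest, with a difference from naive cells of 0.32 (SE 0.12, adjusted p = 0.186). The probe sets of Mpc1 and Pgam1 are numbered among those of another chromosome's genes as well. In a list of 13 further genes of pyruvate dehydrogenase and its regulators, none was called by limma on all arrays (3 in acute and 4 in chronic cells at an unadjusted p under 0.05). For comparisons with naive cells, the share of all genes at an unadjusted p was not computed, here and in the lists below. In the fit without the first naive array, Pdk2 was called lower in acute cells, and Pdhx, Pdk2 and Me2 in chronic cells.

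Of the pentose phosphate enzymes, Pgd makes NADPH in the oxidative arm and Tkt and Taldo1 carry the reversible arm. Tkt was at 7.73, 7.82 and 7.77 on naive, 7.78, 7.69 and 7.65 on acute and 7.27, 7.24 and 7.21 on chronic arrays. The arrays of each group lay within 0.2 units, and the chronic arrays were below all others. Tkt fell by 0.53 in chronic cells (SE 0.07, adjusted p = 0.00334), while its acute difference was -0.06 (SE 0.07, adjusted p = 0.795). Pgd was at 7.86, 8.64 and 8.55 on naive, 8.09, 8.22 and 8.14 on acute and 7.97, 8.14 and 7.93 on chronic arrays. With all arrays it was not called (-0.21 and -0.34). Without the first naive array it was lower in acute (-0.45, adjusted p = 0.0163) and chronic cells (-0.58, adjusted p = 0.00380). Taldo1 was at 7.10, 6.90 and 6.97 on naive, 7.39, 7.20 and 7.06 on acute and 6.55, 6.95 and 6.95 on chronic arrays and was called in neither comparison. None of the 10 further genes of the path's entry and of nucleotide sugar supply was called by limma on all arrays (2 and 3 at an unadjusted p under 0.05). The isomerase Rpia was lower in both groups without the first naive array (-0.43, adjusted p = 0.0463, and -0.74, adjusted p = 0.00326), and Prps1, which makes the nucleotide precursor PRPP, was lower in chronic cells (-0.71, adjusted p = 0.0122).

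Hif1a was at 9.90, 11.20 and 11.07 on naive, 12.11, 12.13 and 12.07 on acute and 12.07, 12.19 and 12.08 on chronic arrays. The Th2 arrays lay within 0.2 units of each other and above every naive array. Hif1a rose by 1.38 (SE 0.29, adjusted p = 0.0274) in acute and by 1.39 (SE 0.29, adjusted p = 0.0243) in chronic cells. Without the first naive array the rises were 0.97 (adjusted p = 0.000149) and 0.98 (adjusted p = 0.000132). These calls did not hold in several fits with 1 Th2 array left out. The acute call was lost without any 1 of the acute arrays or without the first or second chronic array (adjusted p from 0.0547 to 0.105), and the chronic call without the second acute, the third acute, the first chronic or the second chronic array (0.0502 to 0.0880).

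Genes that regulate hypoxia-inducible factors or are their known targets were given by a list of 21. On all arrays 4 rose and 0 fell in acute cells, and 3 rose and 0 fell in chronic cells, by limma. At an unadjusted p under 0.05, 6 were higher and 0 lower in acute cells, and 5 higher and 3 lower in chronic cells. These counts have no share of all genes beside them. Ero1a, an endoplasmic reticulum oxidase, rose by 3.27 (adjusted p = 0.00124) in acute and 2.96 (adjusted p = 0.00217) in chronic cells. Egln3, a prolyl hydroxylase that marks the factors for degradation, rose by 3.12 (adjusted p = 1.52e-06) and 2.71 (adjusted p = 3.85e-06). Epas1, which encodes HIF-2α, rose by 2.85 (adjusted p = 7.04e-05) and 3.27 (adjusted p = 3.02e-05). Bnip3, a mitophagy receptor, rose by 1.39 (adjusted p = 0.00538) in acute cells, and its chronic difference was 0.76 (adjusted p = 0.0662). The median over the list was 0.10 and 0.05, beside -0.03 and 0.04 over all genes. The naive means of Egln3 (6.24) and Bnip3 (6.17) were under the background of 6.53. Other targets, such as Vegfa (0.13 and -0.64), Car9 (-0.05 and 0.17) and P4ha1 (-0.35 and -0.56), were not called on all arrays. With the first naive array left out, 6 of the list were higher and 1 lower in acute cells, and 5 higher and 2 lower in chronic cells. The lower ones were Car12, a carbonic anhydrase (-0.77, adjusted p = 0.0383, in acute and -1.51, adjusted p = 0.00124, in chronic cells), and in chronic cells Vegfa (-1.47, adjusted p = 0.00524). The acute difference of Vegfa then turned to -0.70 (adjusted p = 0.137). The added higher ones were Mxi1 in both groups, Arnt in acute and Bnip3 in chronic cells.

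Of 19 measured genes that act upstream of glycolysis in T cells, 1 fell and 0 rose in acute cells, and 4 fell and 0 rose in chronic cells, by limma. At an unadjusted p under 0.05, 1 was higher and 4 lower in acute cells, and 0 higher and 9 lower in chronic cells. No share of all genes at that threshold was computed, so these counts are not read as a result about the list. Among the 9815 genes with a mean above background, 62.3% had a lower mean in chronic than in naive cells. That share was 52.8% after the arrays were quantile normalised again. Bach2, a repressor that keeps T cells from effector differentiation, differed by -2.17 (adjusted p = 0.000163) and -2.13 (adjusted p = 0.000183) and so fell in both. Mtor, the growth kinase, fell by 0.46 (adjusted p = 0.0277) in chronic cells, its partner Rptor by 0.41 (adjusted p = 0.0408) and its inhibitor Tsc2 by 0.37 (adjusted p = 0.0338). Myc and Irf4 were not called on all arrays. In the fit without the first naive array, 2 of the 19 were higher (Foxo1 and Pik3cd) and 2 lower (Bach2 and Myc) in acute cells, and 1 higher (Foxo1) and 6 lower in chronic cells. The difference of Myc was -0.89 (adjusted p = 0.00620) in acute and -1.13 (adjusted p = 0.00154) in chronic cells, and that of Irf4 was 0.04 and 0.07.

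Genes of cell division moved with the acute group. Of 14 measured proliferation genes, 10 rose in acute cells (median 1.16), among them Ccna2 (2.63, adjusted p = 0.00301) and Mki67 (2.15, adjusted p = 0.000720), and 2 rose in chronic cells. The naive means of Ccna2 (5.65) and Mki67 (6.23) were under the background of 6.53. The same counts, 10 and 2, were found with the first naive array left out. The mean level of the list was 6.05 to 6.15 on naive, 7.07 to 7.69 on acute and 6.27 to 6.83 on chronic arrays. Its part in the differences of the glycolytic genes was not tested.

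**Figure D3:**
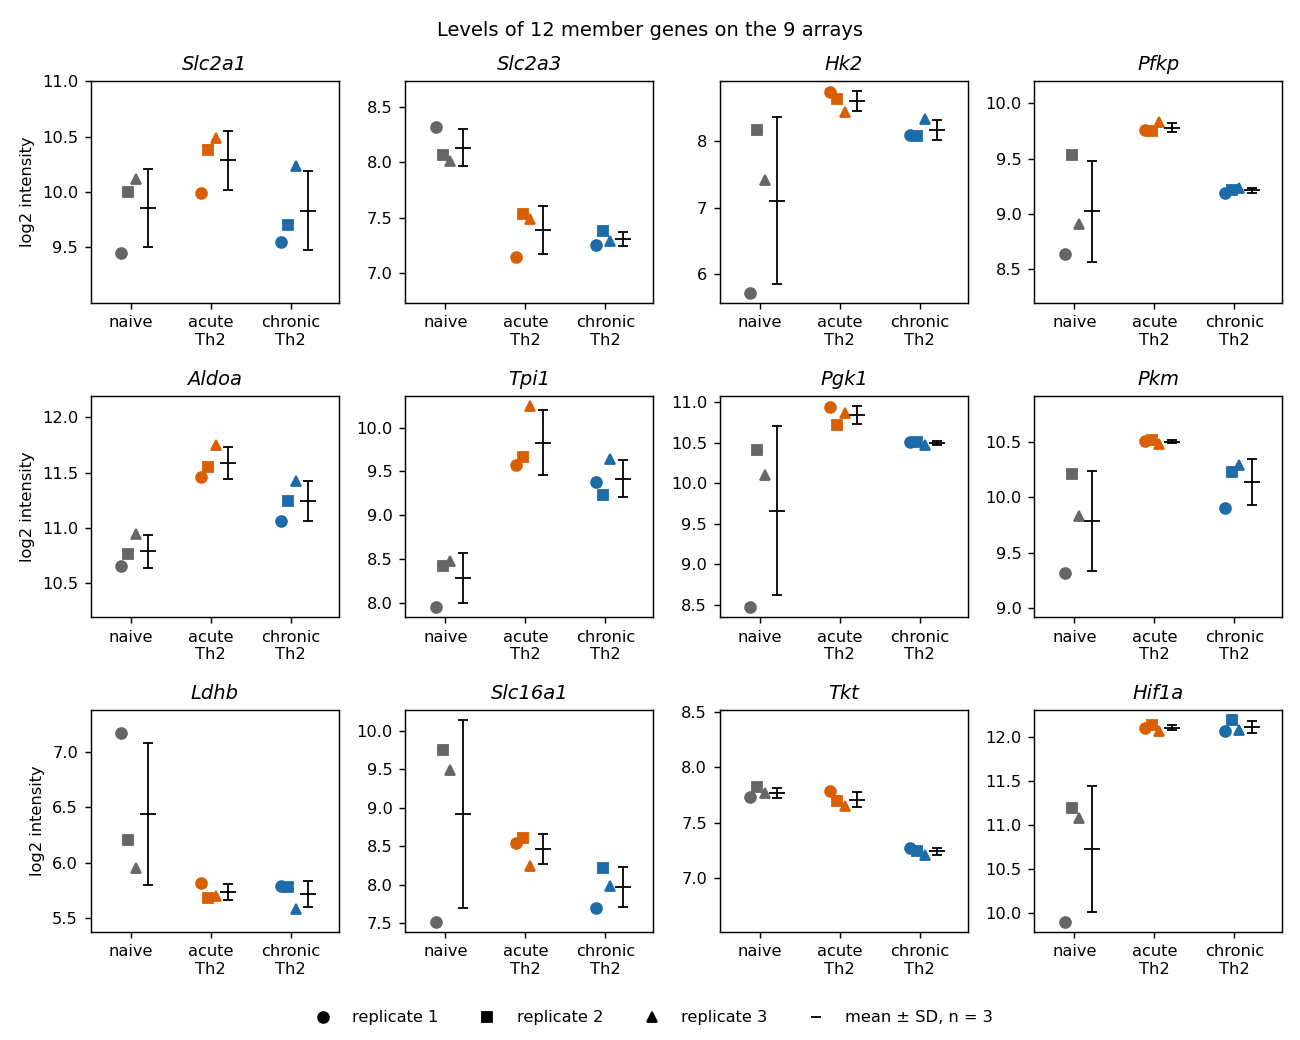
Log2 intensity (y axes, each panel with its own range) of 12 of the genes on the 9 arrays, by group; symbols mark the replicate, and bars show the mean and SD of 3 arrays. The first naive array (circle) is far below the other naive arrays for Hk2, Pgk1, Slc16a1 and Hif1a, while Tpi1 is higher and Slc2a3 lower on every Th2 array than on any naive array.

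Hypoxia-inducible factors bind the core ACGTG or GCGTG, and Myc and related factors the palindrome CACGTG, which holds ACGTG on both strands. The 250 bases before the annotated starts were taken from RefSeq's windows of mouse build GRCm38.p6, for 35 of the 36 genes (50 windows, since some genes have several starts), and searched on both strands. ACGTG or GCGTG occurred in 39 of the 50 windows (78%), against 38.6% of 32851 windows of all genes, which were not matched for base composition. ACGTG alone was in 34% against 16.6%, GCGTG in 56% against 28.2% and CACGTG in 10% against 6.02%. The windows of Bpgm, Eno2, Gpi1 and Tpi1 held neither core. The genes called in both comparisons with naive cells were Slc2a3, Tpi1 and Hif1a, and the windows of Tpi1 (chr6:124814159-124814408, minus strand) and Hif1a (chr12:73907617-73907866, plus strand) are shown because the rise of both was called and their motif content differs. The Hif1a window belongs to a start inside the annotated gene. Capitals mark the matches.
Tpi1: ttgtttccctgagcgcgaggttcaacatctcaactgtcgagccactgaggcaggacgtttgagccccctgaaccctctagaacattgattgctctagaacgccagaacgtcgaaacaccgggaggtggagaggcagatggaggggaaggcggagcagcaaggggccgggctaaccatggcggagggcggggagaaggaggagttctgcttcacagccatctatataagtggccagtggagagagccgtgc
Hif1a: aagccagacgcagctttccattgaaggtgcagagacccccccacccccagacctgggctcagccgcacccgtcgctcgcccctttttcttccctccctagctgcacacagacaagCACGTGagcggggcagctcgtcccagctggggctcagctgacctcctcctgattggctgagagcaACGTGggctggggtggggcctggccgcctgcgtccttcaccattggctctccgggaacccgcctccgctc
The Hif1a window holds 3 matches of ACGTG over both strands, 2 of which overlap in 1 CACGTG. The Tpi1 window holds 0. A match is a stretch of letters and not a measured binding site.

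Chronic and acute Th2 cells were compared to see what differs between the early and the lasting stage of lung inflammation. None of the 31 genes was called by limma, where 0.0301% of all genes were called (6 genes, 3 higher in chronic cells, 0.0150%, and 3 lower, 0.0150%). The smallest adjusted p was 0.226, for Tkt. At an unadjusted p under 0.05 there were 8 of the 31 genes, beside 14.9% of all genes. The group means of 27 of the 31 genes were lower in chronic cells, with a median difference of -0.28 and a range from -0.57 to 0.06, beside a median of 0.04 over all genes. The arrays did not overlap for 13 of the 31 genes, all lower in chronic cells, against 22.7% of all genes (10.8% lower and 11.8% higher). Among the 9815 genes with a mean above background 20.1% were lower without overlap, and among the 4096 genes with a mean above 8, a level picked after the data were seen, 26.8%. These 13 were Hk2, Pgm2, Pfkp, Pfkfb3, Aldoa, Pgk1, Pgam1, Pkm, Ldha, Slc16a1, Mpc1, Tkt and Taldo1. Among them, the probe sets of Pgam1 and Mpc1 are those numbered among another chromosome's genes. A second, dimmer Pkm probe set, numbered likewise, differed by -0.16, beside -0.36 for the one used.

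The difference of Tkt was -0.47 (95% interval -0.63 to -0.30). The other values whose interval did not reach 0 were those of Pfkp (-0.57, interval -1.003 to -0.13, adjusted p = 0.322), Pfkfb3 (-0.43, -0.73 to -0.12), Aldoa (-0.34, -0.63 to -0.05), Taldo1 (-0.40, -0.71 to -0.09), Pgm2 (-0.32, -0.62 to -0.02), Mpc1 (-0.28, -0.55 to -0.02) and Pdha1 (-0.44, -0.88 to -0.01). The intervals are for single genes and are not adjusted for their number. Hif1a differed by 0.01, with an interval from -0.66 to 0.67. The interval of Tpi1 ran from -0.89 to 0.07. The widths rest on the spread of all 9 arrays, including the first naive array, which is in neither Th2 group. With it left out, the interval of Hif1a was -0.17 to 0.19. In that fit 15 genes had an interval that did not reach 0, still with 0 called by limma. They were the 8 above and Slc2a1, Hk2, Tpi1, Pgk1, Pgam1, Pkm and Slc16a1. The share of all genes with such an interval was not computed for that fit, so the rise to 15 is not a result about these genes. Without the first naive array and the third chronic array, 3 genes were called lower in chronic cells, where 5.45% of all genes were called. These were Slc2a1 (-0.66, adjusted p = 0.0485), Pgam1 (-0.44, adjusted p = 0.0462) and Tkt (-0.45, adjusted p = 0.0359). Without the first naive array alone, 0.0602% of all genes were called. The labels give no reason to leave out the third chronic array, and no other pair was left out. Its Slc2a1 level of 10.24 lies within the acute range. When each lung array was left out in turn, the number of genes below 0 was 25 to 28 and their median -0.35 to -0.20.

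**Figure D4:**
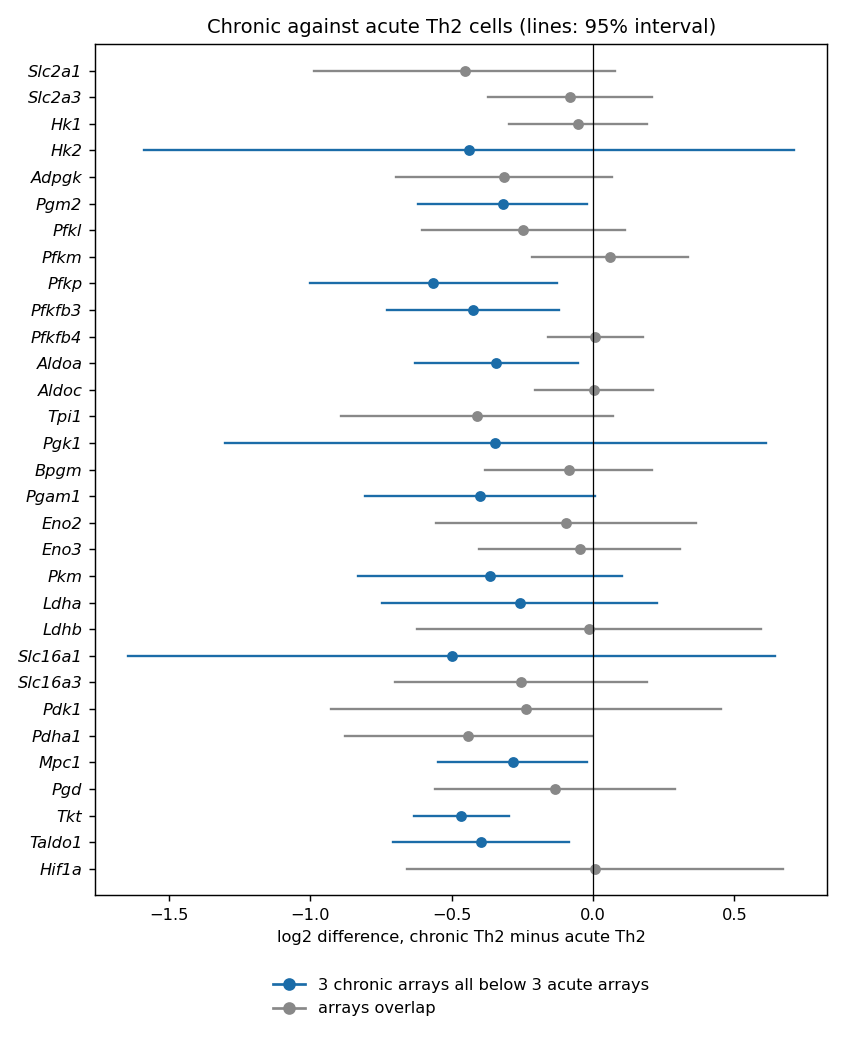
Log2 difference of chronic minus acute Th2 cells (x axis) for the 31 genes (y axis), with 95% intervals as lines. The values of 27 genes lie left of 0, and Pfkm, Pfkfb4, Aldoc and Hif1a lie at 0.00 to 0.06.

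The scaling of the arrays moves this pattern. The chronic arrays had higher levels at the dim end, with median olfactory receptor levels of 5.67, 5.51 and 5.15 against 5.21, 4.98 and 5.004 on the acute arrays. Among the 4096 genes with a mean above 8, 83.2% were lower in chronic cells (median -0.18), while 42.4% of all genes were. After the arrays were quantile normalised again, 27 of the 31 genes were still below 0 (87.1%), with a median of -0.17, beside 52.4% of the genes above 8 and 50.3% of all genes. The arrays then did not overlap for 9 of the 31 genes, all lower in chronic cells (9.81% of all genes were). With each array centred on its median, 31 of the 31 genes were below 0, with a median of -0.35, beside 89.8% of the genes above 8. Of all genes, 5 were called under each of these scalings, 4 higher and 1 lower after quantile normalisation and 1 higher and 4 lower after centring.

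**Figure D5:**
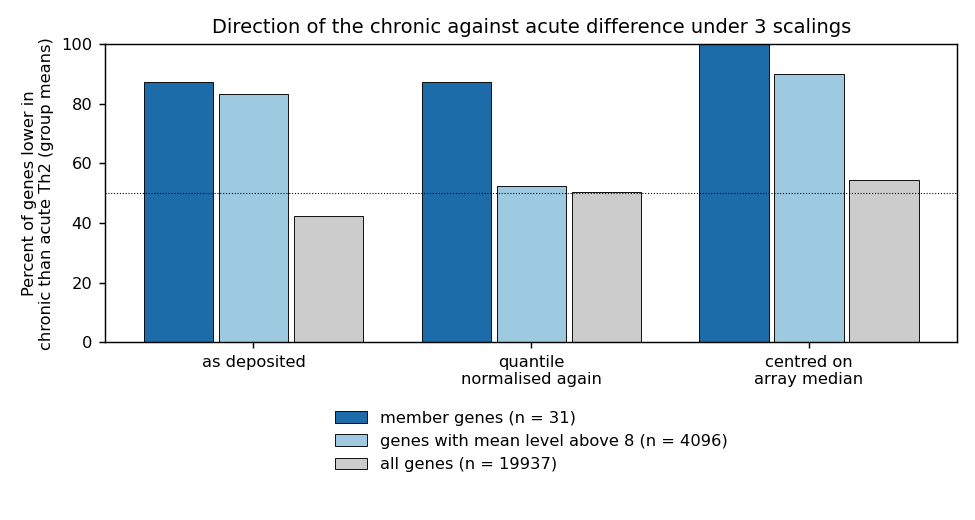
Percent of genes with a lower group mean in chronic than in acute Th2 cells (y axis) under 3 scalings of the arrays (x axis), for the 31 genes, the 4096 genes with a mean above 8 and all 19937 genes. The 31 genes are at 87.1%, 87.1% and 100%, while the genes above 8 drop from 83.2% to 52.4% after quantile normalisation.

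The proliferation list had a median difference of -0.71 between chronic and acute cells, with 0 of 14 genes called by limma and 12 lower at an unadjusted p under 0.05, and its mean level was lower on every chronic than on every acute array. The list of 25 early genes of T cell receptor stimulation had a median of -0.16, with 0 called by limma and 1 at an unadjusted p under 0.05. The part of either list in the lower glycolytic values was not tested.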

How the data were processed

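The 9 samples, 3 in each of 3 groups taken from the titles, were hybridised to Affymetrix Mouse Gene 1.0 ST arrays. The deposited table holds log2 intensities per probe set, made by the authors with RMA, and limma is also named, per the submitters' processing notes. Versions, genome build and annotation: not given in the sources used here. RMA normalises all arrays together, which is meant to make arrays comparable, and compresses differences of dim genes. The deposited arrays still differed at the dim end, with median olfactory receptor levels from 4.94 to 5.67. No further normalisation or filter was applied.

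Of 34760 probe sets, 21640 are listed with 1 gene, 1321 with several and 11799 with none. Probe sets with several genes were not used. Of the single-gene probe sets, 21553 matched a RefSeq gene, with 0 symbols updated, and the brightest probe set stood for a gene (19937 genes). Of these 21553, 97.2% are numbered among probe sets of which at least 5 of 10 neighbours lie on the gene's chromosome. Those used for Hk1, Pgam1, Mpc1 and Ldhb have 0 of 10.

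The two-sided moderated test of limma (version 3.58.1, R version 4.3.3; lmFit, contrasts.fit, eBayes) was run with group as the only term and Benjamini-Hochberg adjustment over all genes. The script was checked on simulated data. With 3 arrays against 3, an exact permutation test cannot go below p = 0.1, so none is given. P-values measure the spread between samples named as biological replicates. The number of arrays limits the precision. Depth does not apply to arrays.

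All 31 measured genes are reported. Of every other list, the counts called are given with up to 4 called genes of the largest difference, and the report says where a gene was picked later. The genes and lists were chosen with earlier results of these data known. In the comparisons with naive cells, counts at an unadjusted p have no share of all genes beside them. Alternatives were each array left out, 2 arrays left out together, a replicate block, each pair of groups alone, array weights, the mean of a gene's probe sets, dim genes left out, 2 other scalings, a trended robust fit, a 2-fold minimum and, added after seeing the data, probe sets placed with their gene. No protein sequence is printed.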

Additional observations from a re-analysis of the deposited data

How the results depend on the processing

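In the comparison of acute Th2 with naive cells, 4 of the 31 genes were called. Leaving out 1 array at a time gave 3 to 8 (8 without the first and 7 without the second naive array), array weights gave 14, leaving out the first naive and the third chronic array 8, and a 2-fold minimum 2. In the comparison of chronic Th2 with naive cells, the count of 4 became 2 (without the first chronic array) to 10 (without the first naive array) with 1 array left out, 13 with array weights, 11 without the first naive and the third chronic array and 2 with a 2-fold minimum. Between chronic and acute cells, the count was 0 with any 1 array left out, 14 with array weights, all lower, and 3 without the first naive and the third chronic array. The weights gave the first naive array 0.165 and the third acute array 8.23. The count over all genes, 1171 for acute Th2 cells, was 653 to 2424 with 1 array left out, 4019 with array weights and 762 with the 2 groups fitted alone. The count of 1571 for chronic Th2 cells was 734 to 3438, 4675 and 686. The 6 for chronic against acute were 0 to 12, 6721 and 2, with 0 under the replicate block and 3 with the trended robust fit. Without the first naive and the third chronic array, the 3 counts over all genes were 2624, 4665 and 1087.

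The fit with a replicate block called 5, 7 and 0 of the 31 genes, adding Slc16a3 in acute cells and Adpgk, Pfkl and Aldoa in chronic cells, and 1261, 1844 and 0 of all genes. Same-numbered arrays correlated in their deviations from the group means by -0.085 to 0.572, not all above 0.1, and the second acute array correlated best with the third chronic array (0.441), so the numbers are not treated as pairs.

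Over 93 single differences and 19 alternatives, 1743 values were recomputed. Of these, 12 lost a call, 73 gained one, 0 called values changed sign, and 61 values changed sign without being called in either fit, the largest at 0.25. The lost calls were those of Hif1a in both comparisons with naive cells, with an adjusted p up to 0.110, and of Tpi1 in chronic cells. Slc2a3 in both comparisons, Aldoa and Tpi1 in acute cells and Tkt in chronic cells kept their call in every alternative with an unchanged fold minimum. Dim signal limits Pfkm, Pfkfb4, Aldoc, Bpgm, Ldhb and Pdk1, whose means were under the background level.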

Other observations

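Branches that leave glycolysis or follow it were looked at through 3 more lists. In the hexosamine and glycogen branch (13 genes measured), glycogen synthase Gys1 was higher in acute Th2 than in naive cells (7.58 to 8.59, difference 1.01, adjusted p = 0.0175), and its mean in chronic cells was 7.63. The muscle glycogen phosphorylase Pygm was lower in acute (-0.78, adjusted p = 0.0118) and chronic cells (-0.91, adjusted p = 0.00543). Without the first naive array the difference of Gys1 between chronic and acute cells was -0.96 (adjusted p = 0.0433), beside an adjusted p of 0.301 with all arrays. In that fit Uap1 and Gbe1 were also lower than in naive cells in both Th2 groups, and Ugp2 was higher in chronic cells.

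In the serine and one-carbon branch (8 genes measured), Psph was the only gene called on all arrays, higher in acute cells by 0.90 (adjusted p = 0.0496). It encodes the last enzyme of the path from a glycolytic intermediate to serine. The mean level of this branch was 7.60 on the first naive array and up to 9.73 on the other naive arrays, beside 9.42 to 9.59 on acute and 9.08 to 9.18 on chronic arrays. With the first naive array left out, Shmt1, a serine hydroxymethyltransferase, was lower in acute (-1.45, adjusted p = 0.000470) and chronic cells (-1.49, adjusted p = 0.000378), Mthfd1, Mthfd2 and Mthfd1l were lower in chronic cells, Psph was higher in acute cells (0.60, adjusted p = 0.00445), and the chronic minus acute difference of Psph was -0.70 (adjusted p = 0.0490). Of 20 genes of the tricarboxylic acid cycle, 0 were called in acute cells by limma (6 at an unadjusted p under 0.05, without a share of all genes). Ogdh, a subunit of oxoglutarate dehydrogenase, was lower in chronic cells by 0.53 (log2 difference -0.53, adjusted p = 0.0279). With the first naive array left out, 0 were called in acute cells, and Ogdh and Sdhc were lower in chronic cells.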
